A study of Mus musculus with 2 samples.

Results

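Gbp2b Il18bp macrophages were the C1q-positive macrophages of mouse squamous cell carcinomas that carried at least 2 unique molecular identifiers (UMIs, counted transcript molecules) each of Gbp2b and Il18bp. Barcodes were taken as cells from 1000 gene UMIs and 500 genes upwards, with up to 10% of UMIs from mitochondrial genes. A macrophage had at least 1 UMI of Csf1r, the receptor of the growth factor CSF1, no UMI of the T-cell gene Cd3e, and at least 0.2% of its UMIs in C1qa, C1qb and C1qc, the chains of complement C1q. Cells with 4 or more UMIs of Mki67 and Top2a (called dividing macrophages here), 3 or more of Fcna and Cbr2 (Fcna Cbr2 macrophages) or 15 or more of Ifit1, Ifit2, Ifit3 and Rsad2 (Ifit-high macrophages) were set aside in that order. The rule left 129 Gbp2b Il18bp macrophages among 6241 C1q macrophages and 11552 cells. The 4070 remaining ones, called other C1q macrophages below, were their main comparison, beside 97 Ifit-high and 1217 Fcna Cbr2 macrophages. The rule uses measured values, so the levels of its own genes are given as a description and were not tested.

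The cells came from subcutaneous tumours of FVB mice with no treatment, each a mosaic grown by co-injection of the carcinoma cell lines CIT6 (YFP) and CIT9 (RFP). CD45-positive leukocytes were sorted after digestion with collagenases and profiled with the 10x 3' v3 droplet assay, together with spatial oligonucleotide codes printed onto tissue sections by light. There were 2 tumours, labelled replicate 1 and replicate 3, in 1 group, and no control or treated group. The labels give no age or sex, nor if each tumour had its own host mouse, so p-values measure only how far class differences varied between these tumours.

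Interferon gamma, a cytokine made mainly by T cells and NK cells, acts on macrophages through its receptor (Ifngr1, Ifngr2), whose signal reaches GAS sites in target promoters. It induces IRF1 and the class II transactivator CIITA, guanylate-binding proteins (GBPs) and immunity-related GTPases (IRGs) that act against intracellular microbes, the T-cell attractants CXCL9 and CXCL10, and antigen presentation. Type I interferons share part of this programme but act through a complex that holds STAT2 and IRF9 on ISRE sites, and induce Ifit, Oas and Mx genes. Gbp2b encodes a guanylate-binding protein, and Il18bp encodes the secreted binding protein that neutralises IL-18, a cytokine that itself drives interferon gamma production.

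The promoters of Gbp2b and of GTPase genes that moved with it are shown because they carry the DNA words that these factors are known to bind. The sequences are the 250 bases before the annotated start, from RefSeq on GRCm38.p6 (mm10), plus strand, 5′ to 3′, with matches to the GAS word TTCNNNGAA or the ISRE core (GAAA, any 2 bases, then GAAA), searched on both strands, in capitals.
Gbp2b, chr3:142594597-142594846: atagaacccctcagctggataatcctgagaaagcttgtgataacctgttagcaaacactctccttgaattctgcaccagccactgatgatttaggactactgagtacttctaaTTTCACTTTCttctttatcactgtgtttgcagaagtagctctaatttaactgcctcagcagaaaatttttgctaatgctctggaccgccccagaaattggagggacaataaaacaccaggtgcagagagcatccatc
Gbp2, chr3:142620413-142620662: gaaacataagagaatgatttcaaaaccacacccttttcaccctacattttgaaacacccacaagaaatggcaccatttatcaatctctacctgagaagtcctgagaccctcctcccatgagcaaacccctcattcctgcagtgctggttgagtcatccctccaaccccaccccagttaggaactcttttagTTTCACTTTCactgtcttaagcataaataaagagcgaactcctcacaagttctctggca
Gbp5, chr3:142496684-142496933: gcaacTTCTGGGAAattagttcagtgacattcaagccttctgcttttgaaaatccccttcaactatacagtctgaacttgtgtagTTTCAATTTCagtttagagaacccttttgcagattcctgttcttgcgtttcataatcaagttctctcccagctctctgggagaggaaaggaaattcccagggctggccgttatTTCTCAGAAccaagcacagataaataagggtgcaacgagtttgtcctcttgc
Igtp, chr11:58199306-58199555: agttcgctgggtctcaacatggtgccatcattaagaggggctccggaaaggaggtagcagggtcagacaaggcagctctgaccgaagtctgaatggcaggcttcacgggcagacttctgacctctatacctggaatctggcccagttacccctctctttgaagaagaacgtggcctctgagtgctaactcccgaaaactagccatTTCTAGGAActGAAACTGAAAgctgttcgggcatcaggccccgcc
Gbp2b and Gbp2 each held 1 ISRE match, beginning 137 and 59 bases before the start. Gbp5 held 2 GAS matches and 1 ISRE match, and Igtp held 1 of each. In windows from 250 bases before to 50 after the start, the ISRE core was found in 3.44% of 32851 mouse promoters and in 10 of 12 promoters of Gbp2b and the listed GTPases. Those 12 belong to 11 genes. GAS was found in 8.30% of all promoters and in 6 of those 12. Of 145 promoters of 107 other genes called higher, 18 held the ISRE core and 20 held GAS. A match is a string of letters and not a shown binding site.

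The label was checked against marker genes. All 10 macrophage markers outside the rule had UMIs in the Gbp2b Il18bp macrophages of both tumours, with a summed level of 40999 CPM (UMIs per 1000000 gene UMIs) in replicate 1 and 64494 in replicate 3, against 45165 and 36924 CPM in other C1q macrophages. Of 8 T-cell markers only Cd4 had a UMI in the 13 cells of replicate 1, where Cd3d, Cd3g, Trac, Trbc2 and Cd8a were at 0. In the 116 cells of replicate 3 all 8 had UMIs. The 8 summed to 10.7 and 37.2 CPM, against 24.3 and 19.8 CPM in other C1q macrophages. The NK-cell markers summed to 46.4 and 98.6 CPM, against 36.1 and 37.2 CPM. In replicate 1 only Klrk1, which encodes the receptor NKG2D, had a UMI, whereas in replicate 3 7 of the 8 did, all but Gzma. Klrk1 passed the test below (log2 fold change 1.74 ± 0.20 SE, edgeR adjusted p = 0.000881), as did Cd4, and Batf3 of the type 1 dendritic-cell list, while Ncr1 and Prf1 were at 0 in replicate 1. The dendritic-cell genes Xcr1 and Itgae were at 0 in both tumours, with that list summing to 111 and 125 CPM, against 103 and 77.9 CPM, and the interferon gamma gene Ifng itself reached 0 and 1.08 CPM. YFP was found in 0 of 13 and 3 of 116 cells and RFP in 1 cell of each tumour. Plasmacytoid dendritic-cell markers summed to 260 and 320 CPM, against 86.2 and 250 CPM. In replicate 1 Bst2, which interferon induces, was the only 1 of these 7 with a UMI, whereas in replicate 3 5 had UMIs. B-cell markers summed to 67.8 and 123 CPM, against 35.4 and 107 CPM, and neutrophil markers to 517 and 138 CPM, against 1543 and 93.8 CPM. The part of doublets and free RNA was looked at only through the alternatives given below.

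Depth per cell was of the same order in the classes compared. The libraries held 89040909 gene UMIs in replicate 1 and 170328781 in replicate 3, and 4818 and 6734 cells with median totals of 16798 and 21346 UMIs. Median totals per cell were 22233 and 21789 UMIs in Gbp2b Il18bp macrophages, against 17592 and 22419 in other C1q macrophages, and their summed UMIs came to 280278 and 2770023. The tumours shared 9 cell barcodes, and the doublet caller Scrublet marked 0 cells, a result that was not relied on. Removing instead the cells with the highest Scrublet scores took out 186 and 363 cells, among them 1 and 3 Gbp2b Il18bp macrophages.

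Most Gbp2b Il18bp macrophages came from 1 tumour. They were 116 of 3247 C1q macrophages in replicate 3 (3.57%, exact 95% binomial interval 2.96 to 4.27) and 13 of 2994 in replicate 1 (0.434%, 0.231 to 0.741). Their mean share was 2.00% ± 2.22 (SD, n = 2 tumours), and the intervals, which cover counting error only, did not overlap. Because the rule asks for raw UMIs, the share moved with depth. With each cell thinned to 10000 UMIs the rule kept 46 of 3189 macrophages in replicate 3 and 4 of 2821 in replicate 1, and at 5000 UMIs 14 of 3161 and 1 of 2892. The order of the tumours was the same at each depth. In barcodes of 10 to 100 UMIs, which hold free RNA, Gbp2b reached 5.02 CPM in replicate 1 and 8.84 CPM in replicate 3.

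At the rule's own cutoffs, cells with Gbp2b more often held Il18bp as well. The shares below are a description: they were not adjusted for depth, and their intervals over cells cover counting error only. Totals per cell began at 12420 and 9165 UMIs in Gbp2b Il18bp macrophages. In macrophages with fewer than 2 UMIs of each gene they began at 1060 and 1080. Among Gbp2b-positive cells (at least 2 UMIs) outside the 3 classes set aside, 13 of 29 in replicate 1 (44.8%, 26.4 to 64.3) and 116 of 158 in replicate 3 (73.4%, 65.8 to 80.1) also had at least 2 UMIs of Il18bp, against 389 of 2016 (19.3%, 17.6 to 21.1) and 446 of 1996 (22.3%, 20.5 to 24.2) of those with fewer Gbp2b UMIs. Cells holding both genes also occurred in the classes that the rule removes, namely 4 and 8 Ifit-high macrophages, 10 and 22 Fcna Cbr2 macrophages and 0 and 8 dividing ones. Outside C1q macrophages 1 and 21 cells held both, of 1824 and 3487. Gbp2b stood at 221 CPM in replicate 1 and 219 CPM in replicate 3 in the chosen cells, against 3.53 and 6.50 CPM in other C1q macrophages. Il18bp stood at 200 and 228 CPM, against 47.9 and 41.4 CPM.

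Few cells lay far above the threshold. The median was 3 UMIs of Gbp2b per cell in both tumours, and the highest counts were 17 in replicate 1 and 27 in replicate 3. Exactly 2 UMIs of both genes occurred in 2 and 15 cells, in which Gbp2 stood at 849 and 806 CPM. Just outside the rule, macrophages with 1 UMI of Gbp2b and at least 2 of Il18bp (21 and 97 cells) had 314 and 204 CPM of Gbp2, and those with at least 2 UMIs of Gbp2b and 1 of Il18bp (9 and 24 cells) had 539 and 444 CPM of Gbp2. Macrophages with neither gene detected (1170 and 1105 cells) had 45.1 and 61.7 CPM of Gbp2. Pooled Gbp2 levels were thus intermediate just outside the rule. Inside it, cells with at least 3 UMIs of both genes (5 and 62 cells) had 913 and 562 CPM of Gbp2. Cxcl9 did not follow in both tumours. Cells with at least 2 UMIs of Gbp2b and 1 of Il18bp had 899 and 1405 CPM of Cxcl9. Gbp2b Il18bp macrophages with exactly 2 UMIs of at least 1 of the genes had 2832 and 941 CPM. Counts this low cannot tell a range of levels from a separate type, which was not tested.

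**Figure D1:**
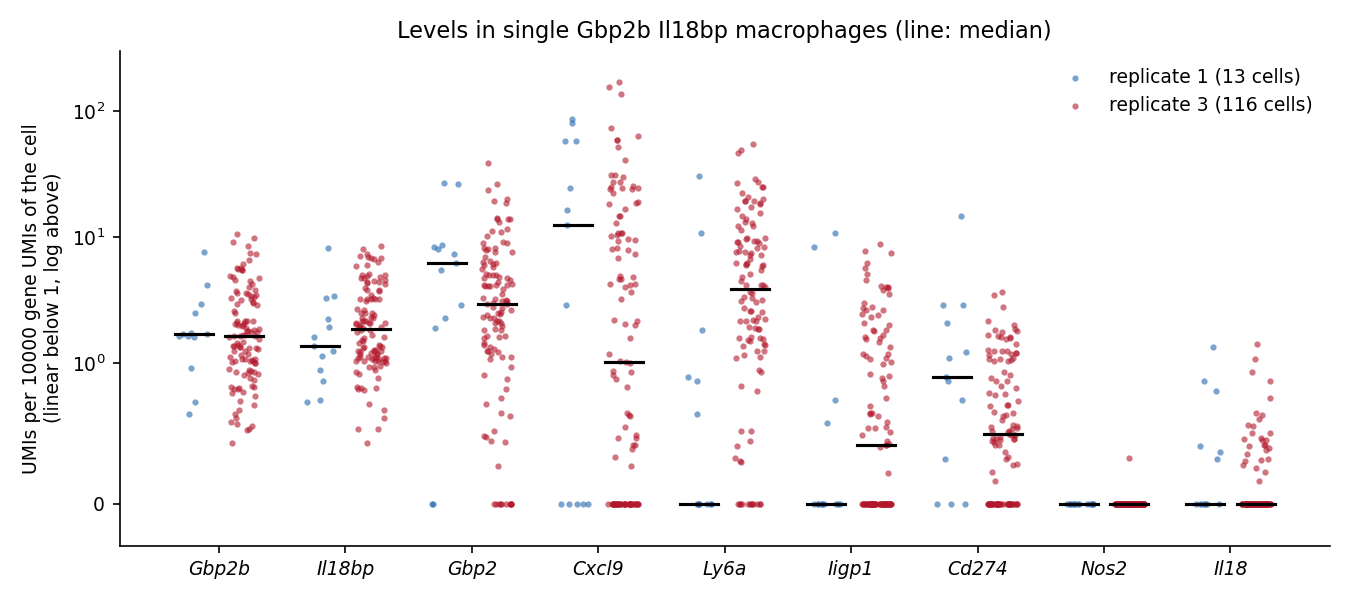
UMIs per 10000 gene UMIs in each Gbp2b Il18bp macrophage (points; vertical axis linear below 1 and logarithmic above) for the rule genes Gbp2b and Il18bp and 7 other genes, with replicate 1 (13 cells) left of replicate 3 (116 cells) and lines at the medians. Gbp2 was at 0 in 2 and 10 cells, whereas Cxcl9 was at 0 in 5 and 39 cells and reached 235 and 562 UMIs in single cells.

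Against other C1q macrophages, Gbp2b Il18bp macrophages had higher levels of GBP and IRG genes, Cxcl9, Ccl5, class I presentation genes and some checkpoint and costimulation genes. Levels of Fn1 and of 3 S100 genes were lower. UMIs were summed per class and tumour over 5 macrophage classes, and the sums were tested with edgeR's quasi-likelihood test with the tumour as a block. The fit covered 12125 genes and called 161 (1.33%) higher and 32 (0.264%) lower, 1.59% in all, at a Benjamini-Hochberg adjusted p under 0.05, and 186 of these 193 had the same direction in both tumours. The cells were chosen on Gbp2b and Il18bp, so a called gene is one whose level went with these across cells, and the replication between tumours rests on the 13 cells of replicate 1. Leaving out each of these in turn gave 144 to 180 higher and 29 to 40 lower genes, and 147 of the 193 were called in each of the 13 fits. Doublet removal gave 196 higher and 53 lower genes, and subtraction of free RNA at an assumed 10% of each sum gave 116 and 27. Without the tumour as a block, 0 genes were called in either direction by edgeR, with 326 higher and 238 lower at an unadjusted p under 0.05, against 855 and 837 with the block.

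The interferon-inducible GTPases, large enzymes that assemble on microbe-containing compartments, had the highest median of the lists. Of 16 tested, 12 rose and 0 fell (Gbp8, Gbp2, Gbp10, Gbp5, Iigp1, Gbp4, Gbp3, Igtp, Ifi47, Gbp7, Gbp9 and Irgm1), and their median log2 fold change was 2.02, where that of all tested genes was -0.03. All 16 lay above 0 in each tumour, with medians of 2.66 in replicate 1 and 1.74 in replicate 3. Gbp2 stood at 714 CPM in replicate 1 and 530 CPM in replicate 3, against 73.1 and 106 CPM in other C1q macrophages (log2 fold change 2.82 ± 0.27 SE, edgeR adjusted p = 0.000574). Gbp8 stood at 71.4 and 110 CPM, against 7.09 and 15.1 CPM (2.98 ± 0.33 SE, edgeR adjusted p = 0.000754). For both genes each tumour's Gbp2b Il18bp macrophages lay above both sums of the other class. Gbp5, which promotes inflammasome assembly, stood at 121 and 51.3 CPM, against 10.3 and 12.2 CPM (2.53 ± 0.26 SE, edgeR adjusted p = 0.000574), but 1 cell held 64.7% of its UMIs in replicate 1. Leaving out each cell of replicate 1 in turn gave 11 or 12 called GTPases, and the 8 alternatives that keep the block gave 10 to 14. Gbp6, Gvin1, Irgm2 and Tgtp2 did not pass, and how UMIs of near-identical GBP copies were assigned is not given in the sources used here.

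The list of interferon gamma signalling genes and transcription factors was raised in part. Of 18 tested genes of the pathway, 6 rose and 0 fell, with a median log2 fold change of 0.34. They included Nlrc5, the activator of class I genes, Batf2, Stat2, Ciita, the activator of class II genes, and Irf1. Ciita stood at 146 and 157 CPM, against 87.1 and 69.3 CPM (1.10 ± 0.17 SE, edgeR adjusted p = 0.00802), and Irf1 at 189 and 123 CPM, against 67.6 and 85.0 CPM (0.88 ± 0.18 SE, edgeR adjusted p = 0.0392), a call lost in classes matched on depth (edgeR adjusted p = 0.121). The alternatives that keep the block called 3 to 8 of the 18, with 3 when matched on depth, where Batf2 and Stat2 were also lost, and 4 when thinned. Both sums of the Gbp2b Il18bp macrophages exceeded both of the other class for these genes. The receptor chain Ifngr1 did not pass, at 357 and 309 CPM, against 502 and 348 CPM (-0.28 ± 0.14 SE, edgeR adjusted p = 0.414).

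Type I interferon-stimulated genes other than those in the rule were raised in part. Of 25 tested, 7 rose and 0 fell (Isg15, Usp18, Zbp1, Irf7, Herc6, Bst2 and Ifih1), with a median log2 fold change of 0.96. At an unadjusted p under 0.05, 19 were higher, and the alternatives that keep the block called 5 to 15, with 14 in the DESeq2 Wald test. Isg15, a ubiquitin-like protein, stood at 153 and 143 CPM, against 45.1 and 62.1 CPM (1.46 ± 0.15 SE, edgeR adjusted p = 0.000574). The rule caps 4 genes of this programme, which bears on how high its other genes could be.

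The chemokines that rose are known to attract T cells. Of 19 chemokines tested, 3 rose and 0 fell. Cxcl9, a ligand of CXCR3, stood at 2401 CPM in replicate 1 and 1315 CPM in replicate 3, against 76.5 and 208 CPM in other C1q macrophages (4.0 ± 0.66 SE, edgeR adjusted p = 0.0104). It had the largest rise of the 161 genes in this fit, yet 5 of 13 and 39 of 116 cells held no UMI of it, and the highest cell held 34.9% and 15.4% of the class's Cxcl9 UMIs. Ccl5, another attractant of T cells, stood at 385 and 255 CPM, against 92.9 and 55.1 CPM (2.18 ± 0.21 SE, edgeR adjusted p = 0.000574). In replicate 1 the highest cells held 53, 29 and 20 UMIs of Ccl5, and the next held 4. The Ccl5 call was lost with free RNA subtracted (edgeR adjusted p = 0.222) and at most 5% mitochondrial UMIs (edgeR adjusted p = 0.105), while Cxcl9 passed in all 8 alternatives that keep the block. Cxcl10, the other CXCR3 ligand measured, stood at 161 and 190 CPM, against 61.9 and 131 CPM (0.91 ± 0.18 SE, edgeR adjusted p = 0.0250), and that call was lost with cells thinned to 5000 UMIs (edgeR adjusted p = 0.112) or at most 5% mitochondrial UMIs (edgeR adjusted p = 0.147). The difference between the chemokines' changes was not tested.

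Checkpoint and costimulation genes followed. Of 19 tested, 4 rose and 0 fell. They were Pdcd1lg2 and Cd274, which encode the PD-1 ligands PD-L2 and PD-L1, the costimulatory receptor Cd40 and the ICOS ligand Icosl. Cd274 stood at 193 and 64.6 CPM, against 54.1 and 26.6 CPM (1.48 ± 0.22 SE, edgeR adjusted p = 0.00708). The replicate 1 cell with the most Gbp5 UMIs also held the most Cd274, Irf1 and Iigp1, at 26, 23 and 19 UMIs. The next highest counts in that tumour were 7, 9 and 12. With each replicate 1 cell left out in turn, Cd274 and Iigp1 were called in all 13 fits and Irf1 in 12. The alternatives that keep the block called 2 to 7 of the 19, and Pdcd1lg2 was lost in 3 of them. Cd80 and Cd86 did not pass. In class I presentation, 11 of 19 genes rose and 0 fell, with a median log2 fold change of 0.72, among them the peptide transporter genes Tap1 and Tap2, the immunoproteasome genes Psmb8 and Psmb9, and H2-K1 and H2-D1. Tap1 stood at 211 and 202 CPM, against 68.0 and 98.5 CPM (1.30 ± 0.14 SE, edgeR adjusted p = 0.000584). In class II presentation 0 of 10 genes passed in edgeR, where 8 were higher at an unadjusted p under 0.05. In the DESeq2 Wald test 3 passed, and 7 did without the filter on low counts. All 10 lay above 0, with a median of 0.61, and H2-Aa had 11446 and 16858 CPM, against 8196 and 9825 CPM (0.68 ± 0.15 SE, edgeR adjusted p = 0.0519).

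Other effector groups changed in a few genes each. Of 12 complement genes 3 rose, and C3, the central component, stood at 168 and 147 CPM, against 46.4 and 54.8 CPM (1.62 ± 0.17 SE, edgeR adjusted p = 0.000574), with 74.5% of its UMIs in replicate 1 in 1 cell. The others on the list were C4b and Cfb, and C4b had 21.4 CPM in replicate 1, against 19.5 CPM there, and did not pass in the DESeq2 Wald test, with free RNA subtracted, when matched on depth or at most 5% mitochondrial UMIs. C6, outside the list and picked after its value was seen, was also called higher (2.80 ± 0.44 SE, edgeR adjusted p = 0.00862). Its log2 fold change was 0.77 in replicate 1 and 2.91 in replicate 3. Of 6 Fc receptors only Fcgr4 rose (1.40 ± 0.24 SE, edgeR adjusted p = 0.0126), and of the 15 listed Toll-like receptors and nucleic acid sensors Tmem173, which encodes STING, passed (0.70 ± 0.15 SE), a call lost when thinned, with free RNA subtracted and when matched on depth. Outside that list Tlr12 and Nod1, picked after their values were seen, were called higher, Tlr12 by 2.51 ± 0.34 SE (edgeR adjusted p = 0.00352), as were the sensors Ifih1 and Zbp1 of the type I list. Kynu and Wars, which encode enzymes of tryptophan handling, rose among 10 genes of arginine, itaconate, tryptophan and nitric oxide metabolism, and neither call was kept when matched on depth, nor that of Wars when thinned. Nos2, the inducible nitric oxide synthase, held 1 UMI in all 129 cells and was too low to test. Arg1 had 350 and 118 CPM, against 736 and 215 CPM, and did not pass (-0.93 ± 0.34 SE, edgeR adjusted p = 0.240).

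The gene for IL-18, the target of the Il18bp product, did not pass. Of 17 genes of the IL-18, IL-1 and inflammasome list, 0 passed in edgeR or in the DESeq2 Wald test, 4 were higher at an unadjusted p under 0.05, and 2 were called higher and 1 lower without the filter on low counts. Il18 had 32.1 CPM in replicate 1 and 13.4 CPM in replicate 3, against 15.8 and 18.8 CPM (-0.16 ± 0.26 SE, edgeR adjusted p = 0.849), and the tumours differed in direction. Its receptor genes Il18r1 and Il18rap stayed at or below 4.32 CPM in both classes.

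Genes of tissue residence, lipid handling and proliferation gave few calls. Vcam1, an adhesion molecule, stood at 271 and 130 CPM, against 89.1 and 38.5 CPM (1.79 ± 0.17 SE, edgeR adjusted p = 0.000574). With Selenop it was 1 of 2 resident and repair genes that rose among 20 tested, whose median was -0.40 (-0.31 with Lyve1 and Retnla, which had no UMI, set to a floor of 3 UMIs over the 129 cells). Mrc1 and Folr2, markers of resident-type macrophages, did not pass. Of 20 lipid and lysosome genes 0 passed in edgeR or the DESeq2 Wald test, 3 were higher and 2 lower at an unadjusted p under 0.05, and 4 and 3 were called without the filter on low counts. Spp1 had 303 and 246 CPM, against 338 and 689 CPM (-0.88 ± 0.30 SE, edgeR adjusted p = 0.208), and was lower in classes matched on depth (-1.24, edgeR adjusted p = 0.0404). In edgeR and the DESeq2 Wald test 0 of 16 genes of hypoxia and glycolysis, 0 of 15 of dissociation stress and 0 of 20 of the cell cycle passed. At an unadjusted p under 0.05, 5 and 4 of the first 2 lists were higher and 3 cell-cycle genes were lower. Without the filter on low counts 5 hypoxia and 3 stress genes were called higher and 6 cell-cycle genes lower, and with cells thinned to 5000 UMIs 1 hypoxia and 2 stress genes were called higher. Of the dissociation-stress genes 0 lay above 0 in replicate 1 and 14 did in replicate 3, with median log2 fold changes of -0.41 and 0.55.

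Of the monocyte genes 1 of 11 changed. Fn1, which encodes fibronectin, fell to 239 CPM in replicate 1 and 117 CPM in replicate 3, against 513 and 344 CPM (-1.31 ± 0.21 SE, edgeR adjusted p = 0.00942), a call lost with the mitochondrial limit at 5% (edgeR adjusted p = 0.0705) and with free RNA subtracted (edgeR adjusted p = 0.0538). The 10 lower genes with the largest changes at 50 CPM or more also held the S100 family genes S100a4, S100a6 and S100a10. The others were Plec, Alcam, Anxa1, Ccnd1, Actn1 and Tgfbi. S100a4 fell to 132 and 230 CPM, against 219 and 1224 CPM (-1.79 ± 0.32 SE, edgeR adjusted p = 0.0171). Tgfbi fell to 500 and 704 CPM, against 832 and 1556 CPM (-0.92 ± 0.12 SE, edgeR adjusted p = 0.00327). These 10 falls were larger in replicate 3, and each had the same direction in both tumours. The 10 largest rises by the same rule also held Fam26f, Ly6a, AW112010 and Serpina3g, with log2 fold changes of 2.57, 2.48, 2.38 and 2.36, all known as interferon-responsive genes of mouse macrophages. A single cell of replicate 1 held 69.4% of the Ly6a UMIs.

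**Figure D2:**
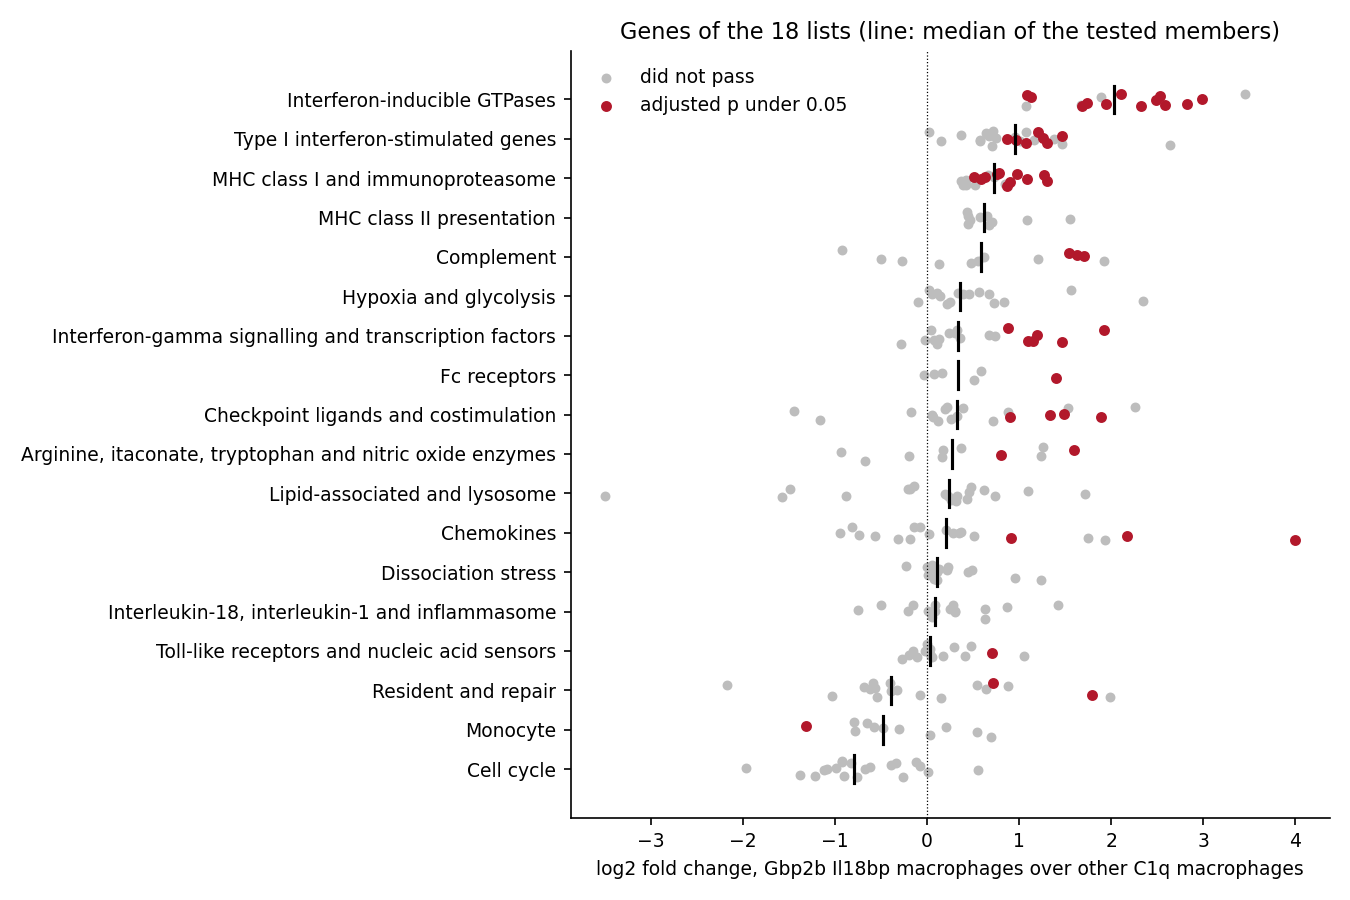
log2 fold changes of Gbp2b Il18bp macrophages over other C1q macrophages (horizontal axis) for each tested gene (points; red at an edgeR adjusted p under 0.05, grey otherwise) of 18 lists, with a line at each list's median; Il1r1, Lpl, Lyve1 and Retnla, which had no UMI in the Gbp2b Il18bp macrophages, are not drawn. The GTPases lie farthest to the right, with a median of 2.02, and the cell-cycle genes farthest to the left, with a median of -0.80 and 0 called.

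Set against Ifit-high macrophages, Gbp2b Il18bp macrophages had far lower type I interferon genes and higher levels of Ciita and some class II genes. No GBP gene was called in either direction. This contrast of the same fit called 90 genes (0.742%) higher and 283 (2.33%) lower, 3.08% in all, and 370 of these 373 had the same direction in both tumours. Without the tumour as a block 2 were higher and 76 lower. All 25 type I interferon-stimulated genes tested fell, with a median log2 fold change of -2.72, although the class is defined by 4 genes of the same programme. Isg15 fell to 153 and 143 CPM, against 1651 and 2003 CPM (-3.71 ± 0.16 SE, edgeR adjusted p = 6.31e-07). By the naming rule the lower genes with the largest changes were Cmpk2, Ifi208, Ifit3b, Mx1 and Oasl1, and Mx1 fell to 3.57 and 13.4 CPM, against 259 and 243 CPM (-4.35 ± 0.22 SE, edgeR adjusted p = 1.29e-06). Each tumour showed these falls on its own. The classes were cut on Ifit1, Ifit2, Ifit3 and Rsad2 in both tumours, so this is not independent support.

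Among the GTPases calls fell on IRG genes. The GTPases Irgm1, Irgm2, Igtp, Ifi47 and Iigp1, all IRGs, fell, whereas 0 of the 9 GBPs tested passed in either direction in edgeR, and over the 16 GTPases 2 were higher and 8 lower at an unadjusted p under 0.05. Irgm1 stood at 53.5 and 52.3 CPM, against 110 and 186 CPM (-1.65 ± 0.18 SE, edgeR adjusted p = 0.000278). Gbp2 had 714 and 530 CPM, against 214 and 493 CPM (0.82 ± 0.27 SE, edgeR adjusted p = 0.144). A p above the threshold does not show equal levels, and the difference between the GBP and IRG changes was not tested. On simulated data this contrast recovered 25.3% of genes changed by 1 log2 unit.

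Among regulators Ciita rose to 146 and 157 CPM, against 40.5 and 59.3 CPM (1.67 ± 0.22 SE, edgeR adjusted p = 0.00115), Irf1 rose (0.98 ± 0.22 SE, edgeR adjusted p = 0.0363) and Stat2 fell. Of 10 class II genes 3 rose and 0 fell, namely H2-Aa, H2-Ab1 and H2-DMa. H2-Ab1 stood at 10090 and 15682 CPM, against 5232 and 9482 CPM (0.80 ± 0.17 SE, edgeR adjusted p = 0.0270). Of 19 chemokines 5 fell (Cxcl10, Ccl9, Ccl4, Ccl12 and Ccl5) and 0 rose. Cxcl10 fell to 161 and 190 CPM, against 1041 and 1447 CPM (-2.92 ± 0.18 SE, edgeR adjusted p = 3.28e-06), whereas Cxcl9 had 2401 and 1315 CPM, against 155 and 1306 CPM, and did not pass (1.73 ± 0.64 SE, edgeR adjusted p = 0.205). In replicate 3 the classes had nearly the same Cxcl9 level, whereas in replicate 1 they differed by 3.85 on the log2 scale. Il18 fell to 32.1 and 13.4 CPM, against 42.3 and 56.5 CPM (-1.74 ± 0.28 SE, edgeR adjusted p = 0.00553), with Il1rn and Casp1.

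The other named rises against Ifit-high macrophages were Vcam1 (1.61 ± 0.21 SE, edgeR adjusted p = 0.00116), Mgst1, Gpr34 and Pxdc1. The monocyte genes Ly6c2, Ms4a4c and Plac8 fell, and Ms4a4c had 60.7 and 166 CPM, against 427 and 1366 CPM. Gch1, which makes a cofactor of nitric oxide synthase, also fell (-2.82 ± 0.23 SE, edgeR adjusted p = 2.24e-05). Cd274, Arg1, Spp1 and Ifngr1 did not pass. With classes matched on depth, which kept 12 and 38 cells of each class, 27 genes were higher and 127 lower.

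**Figure D3:**
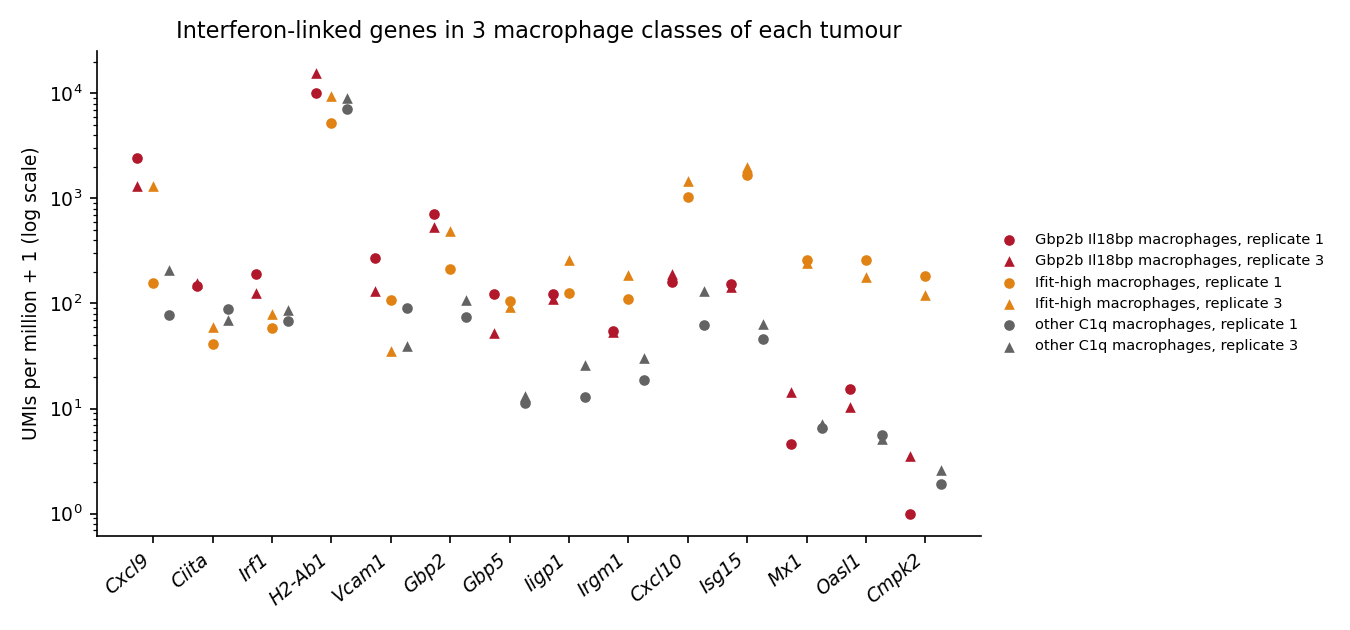
Levels (CPM plus 1, logarithmic vertical axis) of 14 genes in the summed UMIs of Gbp2b Il18bp macrophages (red), Ifit-high macrophages (orange) and other C1q macrophages (grey) of replicate 1 (circles) and replicate 3 (triangles). Within each tumour Ciita, Irf1, H2-Ab1 and Vcam1 are highest in the Gbp2b Il18bp macrophages, while Cxcl10, Isg15, Mx1, Oasl1 and Cmpk2 are highest in the Ifit-high ones.

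Against Fcna Cbr2 macrophages, a class with resident-type genes, 272 genes (2.24%) were higher and 95 (0.784%) lower (3.03% in all), and 1 and 1 without the tumour as a block. Of 10 class II genes 9 rose, and H2-Aa stood at 11446 and 16858 CPM, against 3999 and 5315 CPM (1.70 ± 0.15 SE, edgeR adjusted p = 0.000192). Ciita rose to 146 and 157 CPM, against 43.5 and 38.1 CPM (2.10 ± 0.18 SE, edgeR adjusted p = 0.000112). Of the GTPases 11 of 16 rose, of class I genes 12 of 19, and of interferon gamma pathway genes 8 of 18, with 0 lower in each list. Cxcl9 stood at 2401 and 1315 CPM, against 137 and 140 CPM (3.89 ± 0.65 SE, edgeR adjusted p = 0.00673), and Ccl5, Cxcl10 and Cxcl16 also rose while Pf4 fell. Of 20 resident and repair genes 5 fell (Cd163, F13a1, Folr2, Stab1 and Maf) and only Vcam1 rose. The classes were cut on Fcna and Cbr2 in both tumours, so these falls are not independent support. Folr2, a folate receptor, fell to 60.7 and 39.0 CPM, against 224 and 225 CPM (-2.26 ± 0.17 SE, edgeR adjusted p = 5.46e-05). Cd274 and Irf1 rose, and Il18, Spp1, Arg1 and Ifngr1 did not pass. These 3 comparisons share the Gbp2b Il18bp sums, so their values are not independent.

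To see which genes went with which rule gene, macrophages outside the 3 classes set aside were split by 2 or more UMIs of each gene, giving 13 and 116 cells with both, 16 and 42 with Gbp2b alone, 389 and 446 with Il18bp alone and 1627 and 1550 with neither. Their 8 sums were tested in a second fit over 10878 genes. Cells with both genes against those with neither had 402 higher (3.7%) and 270 lower genes (2.48%), 6.18% in all. Cells with Gbp2b alone against neither had 31 higher (0.285%) and 7 lower (0.0644%), 0.349% in all, and cells with Il18bp alone against neither had 152 higher (1.4%) and 82 lower (0.754%), 2.15% in all, counts that also depend on the number of cells. Without the tumour as a block 0 genes were called in each comparison of this fit, with 337 higher and 185 lower at an unadjusted p under 0.05 for both genes against neither.

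The first rule gene was looked at on its own. In cells with Gbp2b alone against neither, 8 of 16 GTPases rose (Gbp8, Gbp2, Gbp5, Gbp3, Iigp1, Gbp9, Gbp7 and Ifi47), as did Ciita, Cxcl9 and Ccl5. Cxcl9 stood at 789 and 1110 CPM, against 58.0 and 128 CPM (3.45 ± 0.40 SE, edgeR adjusted p = 0.00125). In this contrast 0 of 20 lipid and lysosome genes and 0 of 17 resident and repair genes passed in edgeR, where 3 and 1 were lower and 0 and 2 higher at an unadjusted p under 0.05.

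Il18bp was then looked at on its own. In cells with Il18bp alone against neither, 7 of 20 lipid and lysosome genes rose (Ctsk, Abcg1, Fabp5, Ctsd, Ctsb, Acp5 and Lipa) and Lpl and Spp1 fell, and 4 of 17 resident and repair genes rose (Vcam1, Gas6, Selenop and Mertk). Vcam1 stood at 171 and 92.7 CPM, against 66.8 and 21.0 CPM (1.74 ± 0.17 SE, edgeR adjusted p = 0.000177). Ccl8, a monocyte attractant, stood at 1126 and 2369 CPM, against 250 and 313 CPM (2.48 ± 0.36 SE, edgeR adjusted p = 0.00276). Of 20 cell-cycle genes 8 fell, while 3 of 16 GTPases (Gbp8, Iigp1 and Gbp3) rose. Of 18 interferon gamma pathway genes 0 passed in edgeR, and 4 were higher at an unadjusted p under 0.05. The fibroblast genes Dcn, Col1a1, Col1a2 and Sparc, 4 of 6 tested, also rose in this contrast. With free RNA subtracted it gave 43 higher and 32 lower genes, and Gbp2b alone against neither gave 17 and 3. With the DESeq2 Wald test the contrast gave 35 higher and 4 lower genes, and 64 and 8 for Gbp2b alone against neither.

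The last pair of contrasts held 1 rule gene fixed and varied the other. Cells with both genes against Gbp2b alone gave 0 higher and 1 lower gene (0.00919% called; 462 higher and 384 lower at an unadjusted p under 0.05), with only 16 and 42 cells in the comparison class. The DESeq2 Wald test gave 30 higher and 11 lower there. Vcam1 had 271 and 130 CPM, against 55.1 and 56.2 CPM in cells with Gbp2b alone, and did not pass (1.63 ± 0.31 SE, edgeR adjusted p = 0.122). Cells with both genes against Il18bp alone gave 73 higher (0.671%) and 14 lower genes (0.129%), 0.8% in all, and 35 and 10 with free RNA subtracted. Without that subtraction the calls held 10 of 16 GTPases, 5 of 18 class I genes, Nlrc5, Batf2 and Ciita, Cxcl9, Ccl5 and Cxcl10, and Pdcd1lg2, Fas, Cd40 and Cd274, all higher. Gbp2 stood at 714 and 530 CPM, against 95.5 and 153 CPM in cells with Il18bp alone (2.32 ± 0.22 SE, edgeR adjusted p = 0.000149). Ctsk, a lysosomal protease, fell to 0 and 2.17 CPM, against 3.41 and 76.0 CPM (-4.87 ± 0.72 SE, edgeR adjusted p = 0.00404), a difference that rests on replicate 3.

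**Figure D4:**
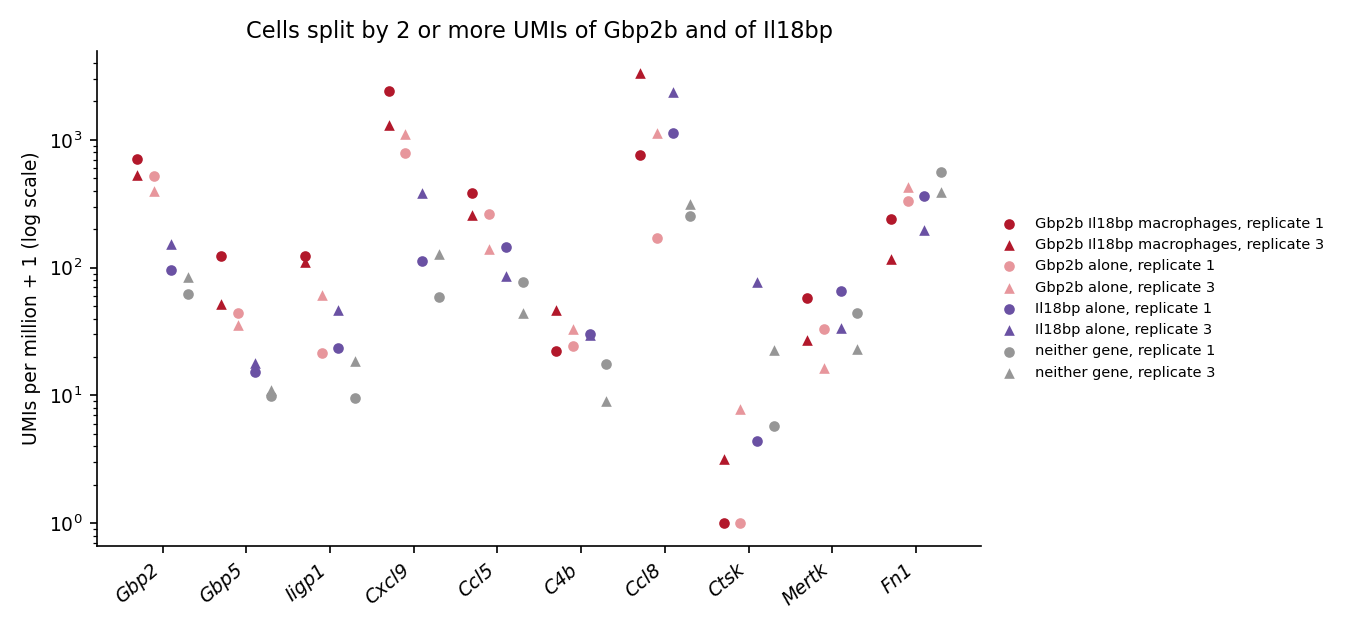
Levels (CPM plus 1, logarithmic vertical axis) of 10 genes in summed UMIs of macrophages with at least 2 UMIs of both genes (dark red), Gbp2b alone (light red), Il18bp alone (purple) or neither (grey), in replicate 1 (circles) and replicate 3 (triangles). Within each tumour Gbp2, Gbp5 and Cxcl9 are higher in both classes with Gbp2b than in either class without it, and Ccl8 is higher in cells with Il18bp alone (1126 and 2369 CPM) than in cells with neither gene (250 and 313 CPM).

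The genes whose levels were most like the rule genes were found over the 10 sums of 5 classes and 2 tumours among 3787 genes reaching 50 CPM, as a Pearson correlation of log2(CPM + 10). These sums share tumours and libraries and the classes were cut on the rule genes, so the values are a description. For Gbp2b they were Lap3, Sdf4, Gbp2, Slamf8 and Fam26f, with correlations of 0.967, 0.953, 0.951, 0.950 and 0.945. For Il18bp they were Slc31a2, Prdx5, Ctss, Lacc1 and Skil, with 0.976, 0.929, 0.919, 0.916 and 0.914. The lists share no gene. Slamf8, a receptor of myeloid cells, also rose against other C1q macrophages (1.57 ± 0.22 SE, edgeR adjusted p = 0.00375).

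Ifng was measured in the cells that make it. T cells (Cd3e at least 1 UMI; 632 in replicate 1 and 1132 in replicate 3) had 11.0 CPM of Ifng in replicate 1 and 57.8 CPM in replicate 3, and NK cells (Ncr1 at least 1 UMI and no Cd3e; 127 and 252) had 42.1 and 146 CPM. With cells thinned to 5000 UMIs, 5.07% and 19.9% of T cells and 14.2% and 30.6% of NK cells held an Ifng UMI, against 0.103% and 0.156% of C1q macrophages. Unthinned, the shares in T cells were 7.75% and 25.2%. The T-cell gate asked for Cd3e alone and did not exclude cells with Csf1r or C1q. In replicate 1 it had 39.8 CPM of Il18bp and 60.0 CPM of Cxcl9. NK cells there had 2.48 and 1.24 CPM, and other C1q macrophages 47.9 and 76.5 CPM. How far macrophages or doublets entered the T-cell gate was not tested. Replicate 3, which had the larger share of Gbp2b Il18bp macrophages, also had the higher Ifng in T and NK cells, in a comparison of 2 tumours that permits no test. Gbp2b was at 0 and 0.596 CPM in NK cells and at 2.50 and 7.91 CPM in T cells, near or below the level in free RNA.

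The spatial codes were compared as shares of each cell's code UMIs, in cells with at least 20. The labels do not say which code marked YFP, RFP or mixed regions, and the tumours carry different sets. In replicate 1 the median share of code ZC1 was 32.3% in Gbp2b Il18bp macrophages and 31.9% in other C1q macrophages, and in replicate 3 it was 8.05% and 7.24%. For ZC5 the medians were 39.2% and 41.2% in replicate 1 and 26.7% and 24.5% in replicate 3. ZC2, in replicate 1 alone, had 24.2% and 24.3%, and ZC6, in replicate 3 alone, 64.8% and 67.4%. All differences were smaller than the spread between cells, whose quartiles for ZC5 in replicate 3 were 22.9% and 30.0% in the Gbp2b Il18bp class. The ZC5 difference had opposite signs in the tumours (-2.0 and 2.21 percentage points), and that of ZC1 was 0.42 and 0.80. With 2 tumours an exact sign-change permutation test cannot go below p = 0.5, so none was run.

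**Figure D5:**
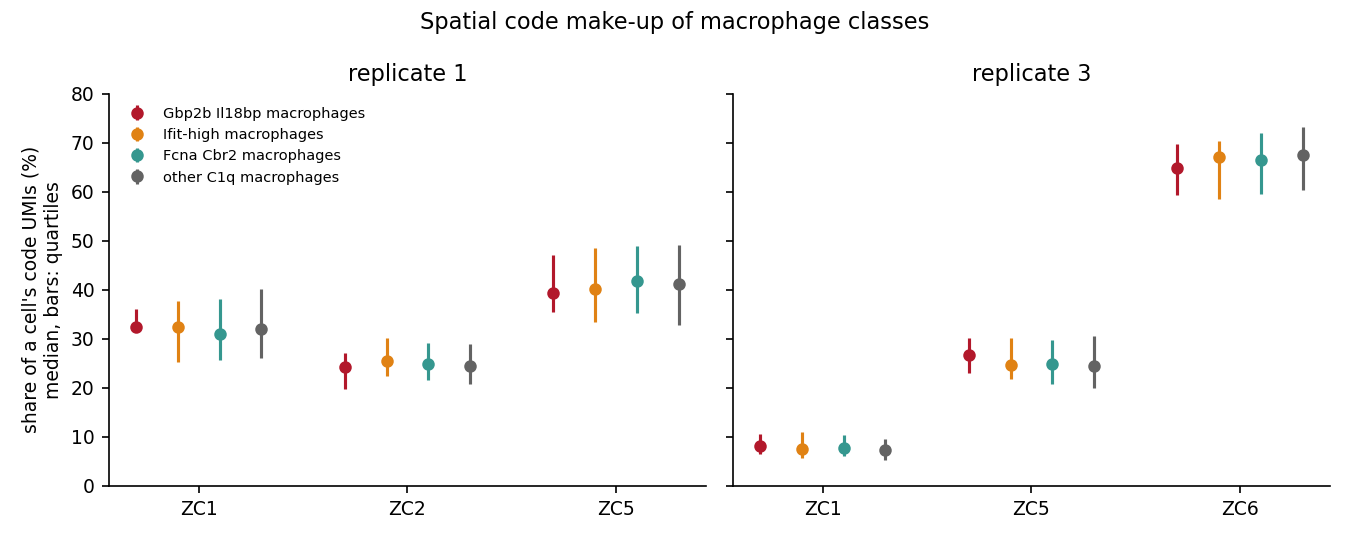
Share of a cell's code UMIs (percent, vertical axis) for each spatial code in replicate 1 (left panel) and replicate 3 (right panel), as median points with quartile bars over cells of 4 macrophage classes. The Gbp2b Il18bp macrophages (red) overlap the other classes for each code.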

How the data were processed

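The authors deposited UMI counts per gene and cell barcode for each tumour, made with Cell Ranger 4.0 on mm10 per the submitters' processing notes. The sources used here give neither the gene annotation release nor the handling of reads shared by similar genes. Spatial code counts stand in the same deposited count matrices and were kept out of gene totals. The members and gene lists were chosen with earlier results of these data known, so no list is independent support.

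Cells were classed by the stated rule. UMIs were summed per class and tumour (10 sums of 5 classes, 4 residual degrees of freedom; a second fit on 8 sums) and tested with edgeR 4.0.16 in R 4.3.3 (TMM, filterByExpr, quasi-likelihood test, tumour as block, Benjamini-Hochberg over all genes, 0.05). The tumour is a block because both classes of a contrast come from the same tissue. Deviations of the class sums correlated between 0.32 and 0.93 within tumours. The highest value was that of other C1q with Fcna Cbr2 macrophages. For Gbp2b Il18bp macrophages the values were 0.42 with other C1q, 0.33 with Ifit-high, 0.40 with Fcna Cbr2 and 0.32 with dividing macrophages. Folds are log2 with SE, and CPM is per 1000000 gene UMIs, not per length, so levels are not compared between genes. The genes of the rule were not tested. On simulated data for Gbp2b Il18bp macrophages against other C1q macrophages (11921 genes), the test recovered 50 of 98 genes changed by 1 log2 unit (51.0%). It recovered 72 of 100 changed by 2 (72%). The 15 false calls were a larger share of all calls than the threshold of 0.05 aims at. Against Ifit-high macrophages it recovered 25.3% and 63.3%, with 2 false calls.

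Genes named were those of the lists, the 10 largest changes in each direction among called genes of at least 50 CPM that moved alike in the tumours (5 for Ifit-high macrophages), and Cxcl9, Cxcl10, Cd274, Il18, Irf1, Nos2, Ifngr1, Spp1 and Arg1. A further gene of this rule is not reported here. Alternatives were DESeq2 1.42.0 and its size factors, no filter, no block, thinning to 5000 UMIs, depth matching, doublet removal, subtraction of free RNA and a mitochondrial limit of 5%. Leaving out single cells of replicate 1 was added after the data were seen.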

Additional observations from a re-analysis of the deposited data

How the results depend on the processing

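The mean share of Gbp2b Il18bp macrophages ran from 0.434% to 3.57% of C1q macrophages and from 0.270% to 1.72% of cells when either tumour was left out. With 1 UMI of each gene in place of 2 it was 5.34% of macrophages and 2.72% of cells. The code differences ran from 0.417 to 0.805 percentage points for ZC1 and from -2.0 to 2.21 for ZC5. Without the replicate block the calls fell to 0 higher and 0 lower against other C1q macrophages, 2 and 76 against Ifit-high macrophages, 1 and 1 against Fcna Cbr2 macrophages and 0 and 0 against macrophages with neither gene. The DESeq2 Wald test gave 263 higher and 95 lower against other C1q macrophages, 163 and 437 against Ifit-high, 143 lower against Fcna Cbr2 and 124 lower against neither. With no filter on low counts the numbers were 361 and 265, 300 and 529, 513 and 315, and 520 lower against neither. Thinning to 5000 UMIs gave 52 and 165 against Ifit-high, 175 higher against Fcna Cbr2, and 215 and 111 against neither. Matching on depth gave 27 and 127 against Ifit-high and 148 higher against Fcna Cbr2. The mitochondrial limit of 5% gave 19 lower against other C1q macrophages and 54 higher against Ifit-high, and doublet removal gave 53 lower against other C1q macrophages. The cause of these moves was not tested.

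Of the values of single genes against other C1q macrophages, 254 stayed on their side of the threshold or within the spread of the tumours, 38 were no longer called, 4 became called, 11 moved and 1 changed sign, namely Il18, at 0.090 without the block. With 1 tumour left out no test across genes remains. The replication in replicate 1 rests on 13 cells and 280278 UMIs, which limits what can be seen for genes of a few CPM.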
